A study of Drosophila melanogaster with 5 samples.

Results

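The Beat, Side, Dpr and DIP proteins are 4 related families of immunoglobulin-domain cell-surface and secreted proteins of Drosophila melanogaster. Their transcripts were measured in heads of otd-uvi mutant and Canton S pupae, 80 h after pupa formation. Members were chosen by name: every probe set whose array annotation names 1 gene with a symbol that begins with beat-, side, dpr and a number, or DIP-. A probe set is the group of short probes on the array that reports 1 transcript region. This gave 48 genes of 10843 named on the array, read by 88 of 13966 probe sets: 20 probe sets for 13 Beat genes, 20 for 8 Side genes, 33 for 19 Dpr genes and 15 for 8 DIP genes. RefSeq lists 54 genes under these names. The genes beat-Ib, dpr7, dpr21, DIP-epsilon, DIP-kappa and DIP-lambda had no probe set that names them alone and were not analysed here.

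The mutant group was 3 arrays of the strain otd-uvi, which the labels call an eye-specific mutant allele of otd (orthodenticle, current symbol oc). The control group was 2 arrays of Canton S, a wild-type laboratory strain. Each array was hybridised with RNA from a separate extraction of 15 to 20 whole pupal heads, so photoreceptors, brain neurons, glia, muscle and other tissues are mixed. In such a mixture, fewer cells of a type and less RNA per cell cannot be told apart. Each group was 1 strain, so the effect of the allele and that of the strain background cannot be told apart. The sex of the pupae was not given in the sources used here.

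As background, Beat and Side proteins bind each other between growing axons and the cells they contact. Beat-Ia on motor axons was the first Beat described, and Side on muscle is its ligand in the embryo. The Dpr proteins, named for a defect in the proboscis extension response, and the DIPs (Dpr-interacting proteins) bind in set combinations on the surfaces of neurons. In the fly visual system different photoreceptor, lamina and medulla cell types express different sets of Dprs and DIPs, and matching pairs take part in synaptic partner choice and in survival of the target neuron. Otd is a homeodomain transcription factor of photoreceptors and of parts of the brain.

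In otd-uvi heads 1 of the 2 probe sets of beat-VII and 1 of the 6 probe sets of side fell, and no other member passed the test in either direction. The fit was limma over all 13966 probe sets on log2(signal + 8), with Benjamini-Hochberg adjustment and a threshold of 0.05. By this test 2 of 88 member probe sets were lower and 0 were higher, where 0.451% of all probe sets were lower, 0.322% were higher and 0.773% were called in all. The median log2 difference (otd-uvi minus Canton S throughout) was -0.35 for the Beat and -0.38 for the Dpr probe sets, -0.06 for Side and -0.002 for DIP, and 0.05 for all probe sets. Leaving out 1 array moved some of these medians by more than 1.5 times: Beat was at -0.20 and Side at -0.19 without Canton S array 1, Side was at -0.023 without Canton S array 2 and -0.027 without otd-uvi array 2, and DIP was at -0.14 without otd-uvi array 1 and 0.095 without otd-uvi array 3. The differences between families were not tested. Values below 0 were found in 14 of 20 Beat, 14 of 20 Side, 26 of 33 Dpr and 8 of 15 DIP probe sets, and in 44.8% of all probe sets.

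**Figure D1:**
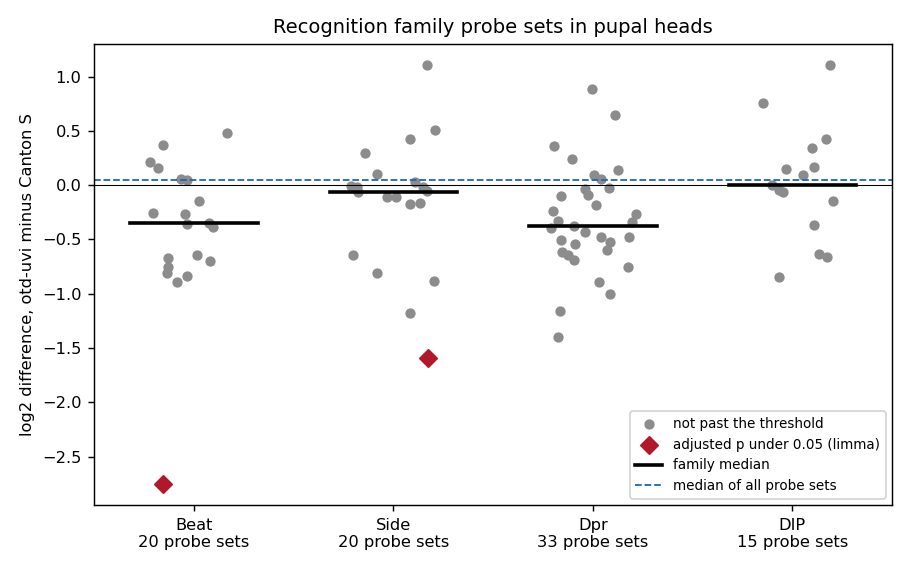
Log2 difference (otd-uvi minus Canton S, y axis) of each member probe set, by family (x axis); grey points did not pass the threshold, red diamonds had an adjusted p under 0.05 in limma, black bars are family medians and the dashed line is the median of all probe sets. The 2 diamonds are beat-VII at -2.75 and side at -1.59, and the Beat and Dpr medians lie at -0.35 and -0.38.

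The otd-uvi arrays lay wholly below the Canton S arrays for 10 of 20 Beat, 5 of 20 Side, 15 of 33 Dpr and 2 of 15 DIP probe sets, where 15.4% of all probe sets did. They lay wholly above for 1 Beat, 1 Side, 3 Dpr and 1 DIP probe set, where 18.6% of all probe sets did, and 34.0% of all probe sets lay apart in either direction. An unadjusted p under 0.05 with a value below 0 was reached by 6 Beat, 4 Side, 9 Dpr and 1 DIP probe set (7.27% of all probe sets), and with a value above 0 by 0, 1, 2 and 1 (7.77% of all probe sets, and 15.0% in either direction). Set against the Canton S mean, the median Beat probe set was at -0.46, -0.26 and -0.34 on otd-uvi arrays 1, 2 and 3, and the median Dpr probe set was at -0.37, -0.17 and -0.57. The Canton S arrays were at 0.05 and -0.05 for Beat and at -0.05 and 0.05 for Dpr. These 2 values are opposite by construction, because the reference is the mean of the same 2 arrays. All 3 otd-uvi medians were below both Canton S medians for these 2 families, and they share the error of that reference. For Side the otd-uvi arrays were at -0.05, -0.16 and -0.07 and the Canton S arrays at -0.15 and 0.15, and for DIP they were at 0.16, -0.08 and -0.05 against -0.03 and 0.03, so the groups overlapped.

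**Figure D2:**
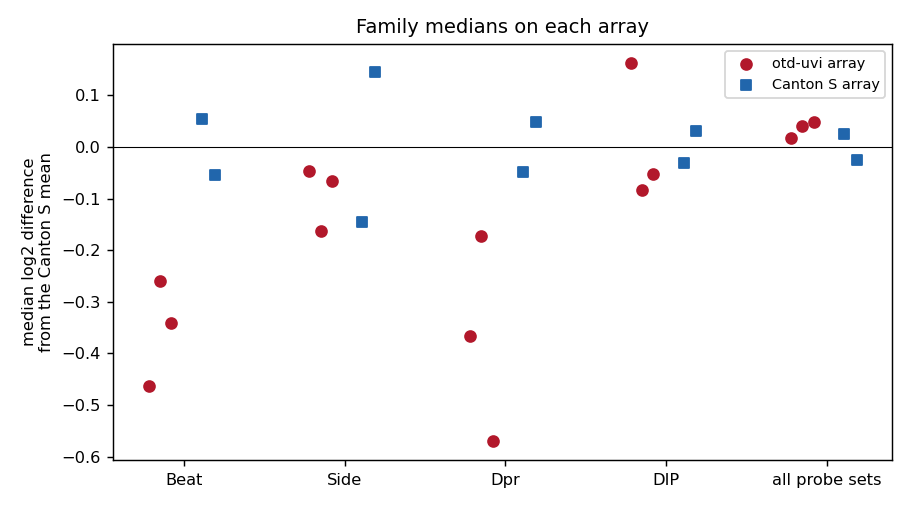
Median log2 difference from the Canton S mean over the probe sets of a family (y axis) on each array; red circles are the 3 otd-uvi arrays, blue squares the 2 Canton S arrays, and the column at the right holds all probe sets. The otd-uvi arrays lie below the Canton S arrays for Beat (-0.46 to -0.26) and Dpr (-0.57 to -0.17) and overlap them for Side and DIP. The 2 Canton S values mirror each other around 0 because their mean is the reference.

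The arrays of the groups also differed outside these families. The median signal was 41.8 to 43.1 on the otd-uvi arrays and 39.96 to 41.3 on the Canton S arrays. Log2 signals correlated over probe sets at 0.953 to 0.966 within a group and at 0.930 to 0.955 between groups. Over the 8 control probe sets for mouse and yeast genes, for which fly RNA holds no target, the median was 7.03 to 7.92 in otd-uvi and 3.07 to 3.69 in Canton S, and the brightest of them was at 11.2 to 22.9 in otd-uvi and 9.13 to 9.30 in Canton S. The median log2 difference of all probe sets varied with brightness: among 10 equal bins of mean signal it was highest in bin 3, at 0.28, and lowest in bin 9, at -0.13. Taken relative to the median of its own bin, the median Beat probe set was at -0.44, the median Dpr probe set at -0.32, and the Side and DIP medians at -0.07 and -0.05. Signal from the 3-prime end over that from the 5-prime end of actin, GAPDH and eIF-4a transcripts, which is high in degraded RNA, had a mean log2 of 1.32, 1.68 and 1.88 in otd-uvi and 1.41 and 1.37 in Canton S. With this ratio as a covariate the Beat median was -0.44 and the Dpr median -0.34. The part of the control signals in the family values was not tested. The targeted gene oc (143425_at) had signals of 27.6, 46.8 and 59.8 in otd-uvi and 71.7 and 56.4 in Canton S, and the groups overlapped.

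A probe set was taken as above the controls in a group when each array exceeded its own brightest mouse or yeast control. By this mark 78 of the 88 members were above the controls in at least 1 group, 18 of 20 Beat, 17 of 20 Side, 32 of 33 Dpr and 11 of 15 DIP probe sets. The 10 others had at least 1 array in each group at or under its controls. The median width of a member's 95% interval was 1.31 on the log2 scale.

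The Beat family held the member with the largest difference of the 88. The beat-VII probe set 150675_at had signals of 7.75, 8.76 and 9.44 in otd-uvi, against 107 and 102 in Canton S. All 3 otd-uvi arrays were under the brightest control of their own array, and both Canton S arrays were far above every otd-uvi signal. The log2 difference was -2.75 (SE 0.27, 95% interval -3.38 to -2.13, limma adjusted p = 0.0123). With the otd-uvi arrays set at their brightest control, otd-uvi was at least 6.50-fold lower. The other beat-VII probe set, 150677_at, had 73.3, 68.3 and 95.3 in otd-uvi and 133 and 143 in Canton S, a log2 difference of -0.76 (adjusted p = 0.184), with no overlap. RefSeq gives beat-VII 1 transcript and 2 former locus tags, and the array annotation does not say which part of the gene each probe set reads. The call for 150675_at was lost without any 1 array, where the adjusted p was 0.0530 to 0.130 and the difference -2.79 to -2.72, and with the 3-prime to 5-prime covariate (adjusted p = 0.0697). With a pseudocount 4 times larger the difference was -1.75.

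Of the other Beat genes, several had otd-uvi arrays below both Canton S arrays without passing the test. For beat-IIa, a Beat that binds Side-IV, probe set 150066_at had 131, 97.9 and 89.1 in otd-uvi and 200.1 and 201 in Canton S, a log2 difference of -0.89 (adjusted p = 0.121). Its other probe set, 150065_at, overlapped between groups and was at 0.21. For beat-VI, a binding partner of Side-II, 150774_at had 79.6, 109.7 and 122 in otd-uvi and 159 and 222 in Canton S, at -0.83 (adjusted p = 0.201), and 150775_at was at -0.14. The single probe set of beat-IIIa had 105, 178 and 87.7 in otd-uvi and 199 and 229 in Canton S, at -0.81 (adjusted p = 0.263).

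The probe set 152429_at of beat-IV was at -0.70 (adjusted p = 0.361), that of beat-Va at -0.67 (adjusted p = 0.379) and those of beat-IIIc at -0.64 (146398_at, with otd-uvi not above the controls) and -0.27 (146397_at), all without overlap. The other beat-IV probe set and the one of beat-IIIb overlapped, with differences between -0.35 and 0.06. The dim probe set of beat-Ic, at -0.38, did not overlap either, with 1 Canton S array above its controls. Over genes, 8 of 13 Beat genes had every probe set below 0. Both probe sets of beat-IIb were above 0, at 0.37 and 0.16, as were the single probe sets of beat-Ia, at 0.05, and of beat-IIIb, and beat-IIa and beat-Vb had values on both sides. For beat-Vb, 149806_at had 69.0, 67.6 and 78.6 in otd-uvi and 44.1 and 54.5 in Canton S, the only Beat probe set whose otd-uvi arrays were all above Canton S (log2 difference 0.48, adjusted p = 0.385), while 149807_at was at -0.25. The signals of beat-Vc scattered within both groups, with 43.8, 9.02 and 6.80 in otd-uvi and 54.3 and 6.35 in Canton S.

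In the Side family, whose members are transmembrane proteins bound by Beats, the 6 probe sets of side gave different answers. Probe set 151098_at had 4.73, 5.88 and 5.45 in otd-uvi, against 29.9 and 34.7 in Canton S. It fell by 1.59 on the log2 scale (SE 0.24, 95% interval of the difference -2.15 to -1.04, limma adjusted p = 0.0390). All 3 otd-uvi signals were under the controls, and with those arrays set at their brightest control otd-uvi was at least 2.01-fold lower. Probe set 151097_r_at lay the other way, with 65.8, 60.8 and 95.9 in otd-uvi and 23.7 and 36.6 in Canton S, a log2 difference of 1.10 (adjusted p = 0.178). Of the rest, 150730_at had 34.8, 20.1 and 23.2 in otd-uvi and 61.6 and 41.6 in Canton S, at -0.81 (adjusted p = 0.300).

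The 2 brightest side probe sets overlapped between groups: 150728_at had 92.0, 113 and 87.6 in otd-uvi and 106 and 114 in Canton S, and 151096_i_at had 110.4, 146 and 110.2 in otd-uvi and 116 and 163 in Canton S. Both stood at -0.17 on the log2 scale, and their 95% intervals were -0.63 to 0.30 and -0.70 to 0.35. The sixth, 150729_at, was at 0.51 and not above the controls in either group. RefSeq lists 4 transcripts for side. The suffixes _i_at and _r_at mark probe sets that Affymetrix built with fewer probes or relaxed design rules. The call for 151098_at was lost without any 1 array, where the adjusted p was 0.125 to 0.215 and the difference -1.68 to -1.50. It was also lost with the 3-prime to 5-prime covariate (adjusted p = 0.142) and with a floor in place of the pseudocount (-2.60, adjusted p = 0.0576). With a pseudocount 4 times larger the difference was -0.78 and still past the threshold (adjusted p = 0.0341).

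**Figure D3:**
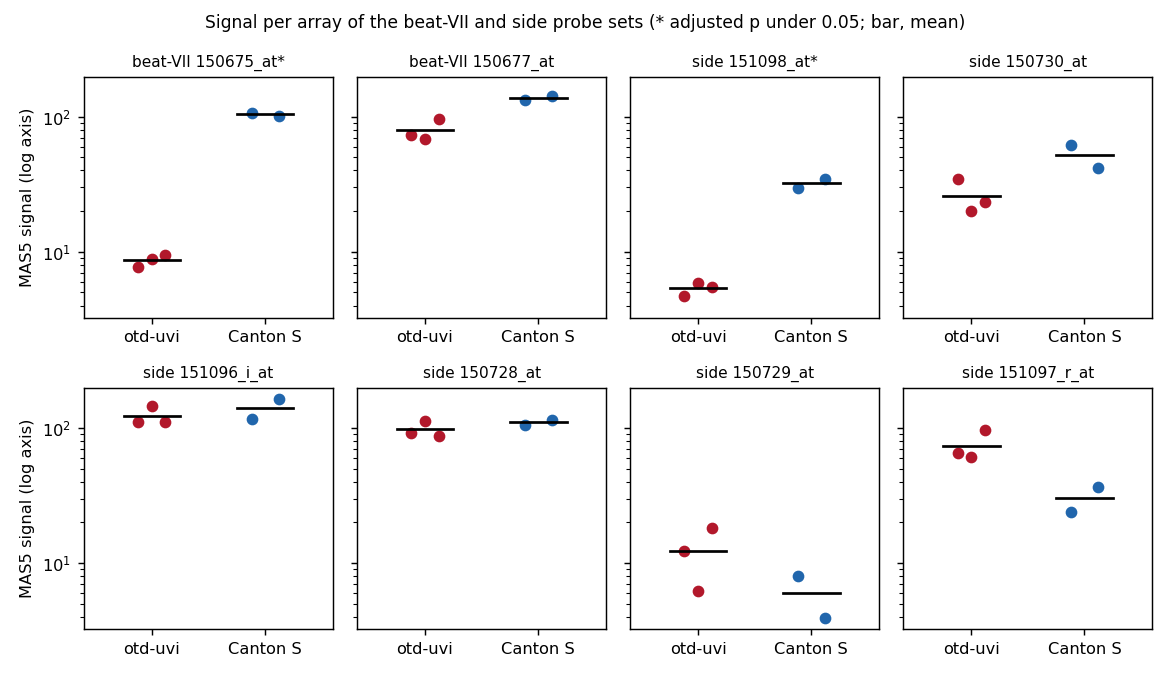
MAS5 signal per array (y axis, log scale) for the 2 probe sets of beat-VII and the 6 of side; red points are the 3 otd-uvi arrays, blue points the 2 Canton S arrays, black bars the group means, and an asterisk marks an adjusted p under 0.05. In otd-uvi the signals are 7.75 to 9.44 for beat-VII 150675_at and 4.73 to 5.88 for side 151098_at, beat-VII 150677_at and side 150730_at lie lower in otd-uvi without overlap, side 151097_r_at lies higher, and the other 3 side probe sets overlap between groups.

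Among the numbered Side genes, probe set 149660_at of side-VI had 14.5, 12.7 and 6.20 in otd-uvi and 29.2 and 40.3 in Canton S, at -1.18 (adjusted p = 0.178). Only 1 of these 3 otd-uvi signals was above the controls of its array, so the size of the difference is poorly determined. The brighter side-VI probe set, 149661_at, had 101, 109 and 103 in otd-uvi and 97.9 and 114 in Canton S, and was at -0.01 (95% interval -0.44 to 0.42). The single probe set of side-IV had 40.8, 21.4 and 16.5 in otd-uvi and 43.9 and 62.0 in Canton S, at -0.88 (adjusted p = 0.331). The 3 probe sets of side-II were at -0.64, -0.02 and 0.29. The lowest of them did not overlap, and it and the highest had 1 of 3 otd-uvi arrays above the controls.

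Probe sets of side-III, side-V, side-VII and side-VIII, 8 in all, overlapped between groups, with log2 differences from -0.11 to 0.43. In side-VII the signals were 241 to 321 in otd-uvi and 244 and 316 in Canton S. In side-VIII they were 73.8 to 97.1 in otd-uvi and 73.1 and 98.4 in Canton S.

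The Dpr family held no probe set past the threshold, and 14 of its 19 genes had every probe set below 0. Its lowest adjusted p was that of dpr6, a ligand of DIP-alpha. It had signals of 96.3, 107 and 74.0 in otd-uvi, against 199.9 and 228 in Canton S. The highest otd-uvi array was under the lowest Canton S array by a clear margin. The log2 difference was -1.16 (SE 0.21, 95% interval -1.64 to -0.67, limma adjusted p = 0.0684). When the dimmest 40% of probe sets were left out of the fit, the adjusted p was 0.0338, past the threshold. It was 0.0581 to 0.0948 under the other scalings, transformations and weightings, 0.209 with the 3-prime to 5-prime covariate and 0.112 to 0.371 without 1 array. For dpr18 the signals were 152, 126 and 114 in otd-uvi and 236 and 214 in Canton S, at -0.75 (SE 0.18, adjusted p = 0.138).

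The genes dpr10, dpr11 and dpr12 had several probe sets each, 7 in all, and every one of them was without overlap and below 0. For dpr10, which also binds DIP-alpha, 148508_at had 41.0, 31.8 and 51.0 in otd-uvi and 57.7 and 115 in Canton S, at -0.89 (adjusted p = 0.292), and 148510_at was at -0.62. Without Canton S array 2 the first was at -0.43 and the second at -0.38, and without Canton S array 1 the first was at -1.34. For dpr11, which photoreceptors of the R7 type express and which binds DIP-gamma, they were at -1.40, -0.52 and -0.48. The widest of these, 149406_at, had 29.5, 38.4 and 9.72 in otd-uvi and 41.8 and 129 in Canton S, so its value rested largely on Canton S array 2: without that array it was -0.67, and without Canton S array 1 it was -2.13. The brightest, 149404_at, had 122, 118 and 132 in otd-uvi and 156 and 197 in Canton S (adjusted p = 0.284). For dpr12, the ligand of DIP-delta, 146657_at had 121, 114 and 98.7 in otd-uvi and 139 and 167 in Canton S, at -0.43, and 151320_at was at -1.01 (adjusted p = 0.298), or -0.62 without Canton S array 2 and -0.66 without otd-uvi array 3.

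Other Dpr probe sets below 0 without overlap were those of dpr19 at -0.51, dpr2 (146209_at) at -0.69, dpr3 (145618_at) at -0.33, dpr4 (151035_at) at -0.54, dpr8 (145068_at) at -0.64 and dpr17 (149732_at) at -0.34, with adjusted p of 0.256 to 0.635. The only Dpr genes with every probe set above 0 were dpr9 and dpr16. In dpr9 all 3 probe sets were above 0, and in 2 of them the groups did not overlap. The first, 149930_at, had 87.5, 106 and 148 in otd-uvi and 48.0 and 66.8 in Canton S, at 0.88 (adjusted p = 0.219). The next, 149929_at, had 235, 229 and 259.9 in otd-uvi and 196 and 209.9 in Canton S, at 0.24 (adjusted p = 0.479). The third overlapped between groups. For dpr16 the groups overlapped, at 0.10 (95% interval -0.61 to 0.80), and the value was below 0 with the 3-prime to 5-prime covariate (-0.19).

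The probe sets of dpr2 were split: 146208_at had 23.0, 24.0 and 21.5 in otd-uvi and 14.4 and 9.33 in Canton S, at 0.64 (adjusted p = 0.330), the reverse of 146209_at. The 12 Dpr probe sets that overlapped between groups and are not described singly read dpr1, dpr3, dpr4, dpr5, dpr8, dpr9, dpr13, dpr14 and dpr20, and their log2 differences ran from -0.47 to 0.36. One of them, 151193_f_at of dpr3, carries the suffix that marks probes shared with a family of sequences, so its signal of 723 to 1636 in otd-uvi and 976 and 1402 in Canton S may not be that of dpr3 alone.

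**Figure D4:**
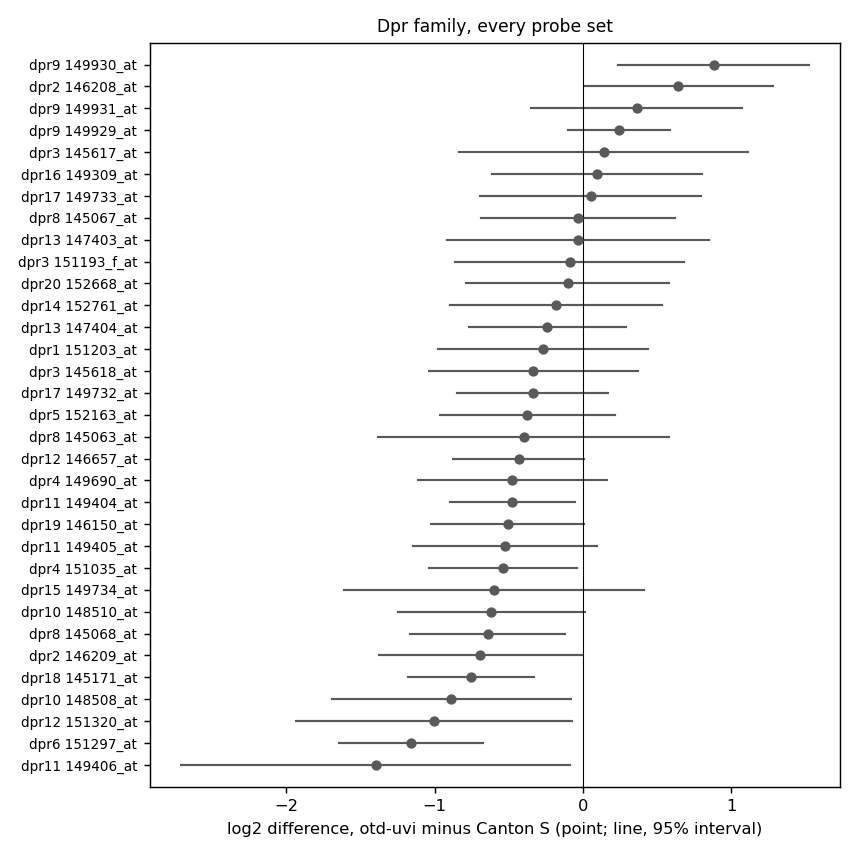
Log2 difference (otd-uvi minus Canton S, x axis) of all 33 Dpr probe sets (y axis), from highest to lowest; points are estimates and lines 95% intervals from limma, and none passed the threshold. Of the 33 values 26 lie below 0, from dpr11 149406_at at -1.40 upward, and the highest is dpr9 149930_at at 0.88.

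The DIP family, the receptors of Dprs, held no probe set past the threshold, and 4 of its 15 probe sets were not above the controls. The largest difference was in DIP-beta, a receptor of several Dprs that lamina neurons express. Of its probe sets, 145478_at had 28.6, 16.4 and 21.2 in otd-uvi and 4.94 and 6.65 in Canton S, at 1.11 (SE 0.28, adjusted p = 0.150). Both Canton S signals were under the controls of their arrays, and the mouse and yeast controls were themselves brighter in otd-uvi. With Canton S set at its brightest controls, otd-uvi was 2.33-fold higher. This is not a lower bound, because the otd-uvi signals were left as measured. The brightest controls of otd-uvi arrays 1, 2 and 3 were at 22.9, 11.2 and 16.2. A further DIP-beta probe set, 145477_at, had 21.8, 17.2 and 3.82 in otd-uvi and 3.54 and 5.04 in Canton S, so otd-uvi array 3 lay within the Canton S range (0.75, adjusted p = 0.428, with 1 of 3 otd-uvi arrays and no Canton S array above the controls), and the third was not above the controls in either group.

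For DIP-theta, 145837_at had 19.6, 27.2 and 35.4 in otd-uvi and 55.2 and 54.1 in Canton S, at -0.85 (adjusted p = 0.261), while the brighter 151413_at had 280.3, 175 and 243 in otd-uvi and 228 and 229.6 in Canton S, with overlap. For DIP-alpha, 144446_at had 25.7, 34.3 and 61.8 in otd-uvi and 76.6 and 52.8 in Canton S, at -0.63 (adjusted p = 0.471), with overlap. Its other probe set, 144448_at, was under the controls on all 5 arrays and was at -0.063, without overlap. DIP-gamma had 95.2, 118 and 86.0 in otd-uvi and 109 and 77.7 in Canton S, and was at 0.09 (95% interval -0.45 to 0.64). The 7 overlapping DIP probe sets not described with a difference of their own, of DIP-beta, DIP-eta, DIP-iota, DIP-theta and DIP-zeta, ran from -0.66 to 0.42.

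Proteins known to bind each other were set side by side. DIP-alpha at -0.63 (144446_at, the probe set above the controls) stood beside dpr6 at -1.16 and dpr10 at -0.89 and -0.62. DIP-gamma at 0.09 stood beside dpr11 at -1.40, -0.52 and -0.48, dpr15 at -0.60, dpr16 at 0.10 and dpr17 at -0.34 and 0.05. DIP-delta at 0.17 and 0.34 stood beside dpr12 at -1.01 and -0.43. Every probe set of dpr6, dpr10, dpr11 and dpr12 had its otd-uvi arrays wholly below Canton S. These genes are grouped here because of that, and over the whole family 15 of 33 Dpr probe sets did, where 15.4% of all probe sets did. Also wholly below were dpr17 149732_at and DIP-alpha 144448_at, the latter under the controls on every array. The probe sets of dpr15, dpr16, DIP-gamma and DIP-delta overlapped, as did dpr17 149733_at and DIP-alpha 144446_at. The values of DIP-gamma and DIP-delta, and of dpr17 149733_at, took either sign among the alternatives. Of the Beat and Side partners, side-IV at -0.88 stood beside beat-IIa at -0.89 and 0.21 and beat-IIb at 0.37 and 0.16. The genes beat-Ia at 0.05 and beat-Ic at -0.38 are the partners of side, and the first was below 0 under all 3 other scalings (-0.04 to -0.01). For side-II the values of -0.64, -0.02 and 0.29 stood beside beat-VI at -0.83 and -0.14, and for side-VI those of -1.18 (otd-uvi above the controls on 1 of 3 arrays) and -0.01 stood beside beat-Va at -0.67, beat-Vb at 0.48 and -0.25 and beat-Vc at -0.34. The differences between partners were not tested.

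**Figure D5:**
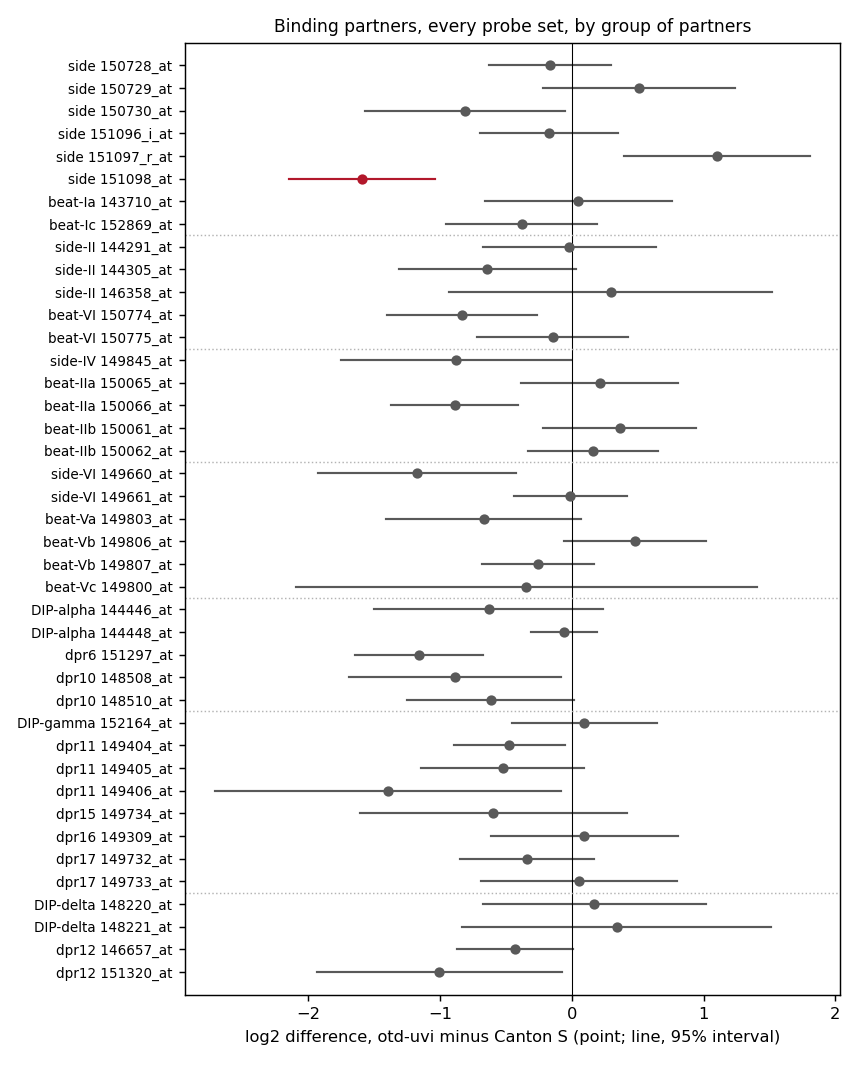
Log2 difference (otd-uvi minus Canton S, x axis) of every probe set of genes with known binding partners (y axis), with each Side or DIP above its Beats or Dprs and dotted lines between groups of partners; points are estimates, lines 95% intervals from limma, and red marks an adjusted p under 0.05. The red point is side 151098_at at -1.59, and the intervals of the DIP-gamma and DIP-delta probe sets all cross 0.

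Many members are close neighbours in the RefSeq gene order. No protein-coding gene lies between dpr4 and dpr5, 1 lies between dpr15 and dpr17, between DIP-eta and DIP-theta and between beat-Va and beat-Vc, and 5 lie between dpr6 and dpr10. The neighbours dpr6 and dpr10 had all 3 of their probe sets below 0 without overlap, where 15 of 33 Dpr probe sets and 15.4% of all probe sets lay wholly below Canton S. The 3 probe sets of dpr4 and dpr5 were all below 0, and in 1 of them the groups did not overlap. Of the others, DIP-eta overlapped between groups while DIP-theta had 1 probe set below 0 without overlap and 1 with overlap, and dpr15 at -0.60 and dpr17 at -0.34 and 0.05 included both signs. In the beat-V group beat-Va was at -0.67, beat-Vb at 0.48 and -0.25 and beat-Vc at -0.34. Other Beat neighbours, with 4 to 7 protein-coding genes between them, also included both signs. In the beat-II group beat-IIa was at -0.89 and 0.21 and beat-IIb at 0.37 and 0.16. In the beat-III group beat-IIIa was at -0.81, beat-IIIc at -0.64 and -0.27, and beat-IIIb was above 0. In the beat-I group beat-Ia was at 0.05 and beat-Ic at -0.38.

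Probe sets of 1 gene often differed. Of the 27 member genes with more than 1 probe set, 14 had all of them below 0, 3 had all above 0 and 10 (37.0%) had values on both sides, compared with 42.3% of 1209 such genes on the whole array. The median spread between the highest and lowest log2 difference of a gene was 0.61 for these 27 genes and 0.42 for the 1209. Over the whole array, 21 genes with several probe sets had at least 1 call, and in 20 of them another probe set was not called, as in beat-VII and side. In 5 of the 21, probe sets lay on both sides of 0. When each gene was represented by its probe set with the highest mean signal, 0 of 48 members passed.

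Marker lists for cell types of the head were read on the same arrays. Over all probe sets, 0.451% were called lower, 15.4% lay wholly below Canton S and 18.6% wholly above. An unadjusted p under 0.05 in limma was reached by 15.0% of all probe sets, and by 7.27% with a value below 0. These shares include dim probe sets, while each marker was read by its brightest probe set. All 12 measured neuron markers were above the controls, and all 12 had log2 differences below 0, with a median of -0.50. In 5 of the 12 the otd-uvi arrays lay below Canton S, and none passed the test (5 had an unadjusted p under 0.05). Their summed signal was 2139 to 2840 in otd-uvi and 3312 to 3921 in Canton S. Of 11 genes on the photoreceptor list, all above the controls, 4 fell (chp, Arr2, inaD and trp), 10 had values below 0 and 8 lay wholly below Canton S. Their median was -0.81, and the summed signal was 6671 to 8353 in otd-uvi and 13128 to 14799 in Canton S. The list included ort, a histamine receptor gene of neurons that photoreceptors contact, and so not a photoreceptor marker. At -1.22 and wholly below Canton S, ort is counted in the 10 and the 8, and in the median and sum. The 10 glial markers had a median of 0.03, with 4 wholly below Canton S (Eaat2 at -1.08, Gs2 at -0.53, and Gat and drpr at -0.36 each). The 1 wholly above was gcm, which was at background in both groups. Their summed signal was 3520 to 4313 in otd-uvi and 4982 to 5282 in Canton S. The 9 lamina and medulla neuron factors had a median of -0.06 and a summed signal of 500.3 to 543.8 in otd-uvi and 512 to 592 in Canton S, with bsh at background, and the 7 muscle markers had a median of -0.06 and a summed signal of 19593 to 22688 in otd-uvi and 20127 to 20398 in Canton S. No marker of the glial, lamina and medulla or muscle lists passed the test, and 2, 0 and 1 of them had an unadjusted p under 0.05. The part of these neuron, photoreceptor and glial marker values in the Beat and Dpr values was not tested.

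Other neuronal recognition genes were a list of 51 symbols of receptors and adhesion proteins, of which 45 were measured. The symbols fmi and stan in it name the same gene, measured as stan. The list had 2 calls, both lower, where 0.451% of all probe sets were called lower. The genes that fell were fipi, an immunoglobulin-domain gene (22.6 ± 6.83 in otd-uvi and 238 ± 84.4 in Canton S, SD, n = 3 and 2, log2 difference -2.99), and kek2, a leucine-rich repeat gene (116 ± 41.5 in otd-uvi and 641 ± 127 in Canton S, -2.43). Their limma adjusted p were 0.0157 and 0.0198. Over all probe sets the 108 calls became 8 with the 3-prime to 5-prime covariate. Which alternatives kept the calls of fipi, kek2 and the photoreceptor list is not given here. The next largest differences on the list were those of Ama at -0.92 (adjusted p = 0.359) and kek4 at -0.87 (adjusted p = 0.0864). The list's median was -0.17, with 28 of 45 values below 0 and 9 wholly below Canton S. Over all probe sets, dim ones included, 44.8% were below 0 and 15.4% wholly below Canton S. The list took the brightest probe set of each gene, so these shares are not matched to it in brightness. Over all probe sets above the controls in at least 1 group, the median log2 difference was -0.05.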

How the data were processed

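Biotin-labelled total RNA from 5 samples of pupal heads was hybridised to Affymetrix Drosophila arrays, 1 array each. The deposited values are intensities that the authors computed with MAS5, per the submitters' processing notes, on a linear scale. The MAS5 version, settings, scaling target and detection calls are not given in the sources used here. Probe sets were named from a table of array annotation: of 13966 that were not controls, 12442 had 1 gene, 327 several and 1197 none. Symbols of 12393 were updated by gene identifier through RefSeq, whose gene order and transcript counts are also used. Positions and sequences are not used here.

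After 44 control probe sets were left out, a pseudocount of 8 was added to each signal before taking log2; it is close to the 20th percentile of the signals. The model had strain as its only term and was run in limma 3.58.1 under R 4.3.3, with lmFit and with an intensity trend in eBayes. Residual degrees of freedom were 3 and the prior added 4.16. The Benjamini-Hochberg adjustment covered all 13966 probe sets. Log2 differences understate the change of dim probe sets because of the pseudocount. With 5 arrays, precision is limited by their number. The fit was also run on simulated signals in which known probe sets had been shifted. Only probe sets above the median of the mean signals were shifted. The 2 called member probe sets were below that median, so the simulation does not cover them. A lower bound on a fold replaced the dim group's signal on each array by the brightest mouse or yeast control where that was higher. The other group's signal was left as measured, so where otd-uvi was the brighter group the fold is not a lower bound.

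The text names every member that passed the test or was above the controls in a group, the 3 largest differences of each family and members of binding pairs. A difference is printed where a member had an unadjusted p under 0.05, did not overlap between groups, was among those 3 or belonged to a pair; the others are given as ranges, a choice made after seeing the values. Markers and other recognition genes were represented by their brightest probe set. Members, lists and tests were chosen with earlier results of these data known. Alternatives were quantile normalization, median centring, cyclic loess, another pseudocount, a floor, leaving out dim probe sets, no intensity trend, array weights, a replicate block, a covariate for the 3-prime to 5-prime ratio, leaving out each array, 1 probe set per gene, and the annotation's own symbols.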

Additional observations from a re-analysis of the deposited data

How the results depend on the processing

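The 108 calls among all probe sets became 200 when the dimmest 40% were left out, 8 with the 3-prime to 5-prime covariate, and 2 to 22 when 1 array was left out. The 2 member calls, of beat-VII and side, were both kept under quantile normalization, median centring, cyclic loess, a larger pseudocount, no intensity trend and array weights. Without the dimmest 40% of probe sets, which include side 151098_at, the 2 member calls were beat-VII and dpr6. With a floor 1 member was called, and 0 were called with the covariate, with 1 probe set per gene and without any 1 array (0 each time). The replicate numbers shared by the groups are not said to pair arrays. Deviations from the group means correlated at -0.0045 and 0.12 in the 2 same-numbered pairs. These values cannot show whether arrays are paired, because the deviations of 2 Canton S arrays mirror each other. With the replicate number as a block, which leaves out otd-uvi array 3, 1 probe set of the array and 0 members were called, and the adjusted p of dpr6 was 0.287. The cause of these changes was not tested.

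The Beat median was -0.22 with the larger pseudocount and -0.41 to -0.20 without 1 array, and the Side median was -0.19 to -0.023 without 1 array. The DIP median was -0.15 without dim probe sets and -0.14 to 0.095 without 1 array. The median of all members was -0.23 under median centring, -0.14 with the larger pseudocount, -0.23 with a floor, -0.27 without dim probe sets, -0.27 with 1 probe set per gene, -0.26 over members above the controls and -0.27 to -0.17 without 1 array. The Dpr median moved by less than the spread between replicates in every alternative.

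Of 59 probe sets whose difference is given, 45 kept their direction in every alternative and 14 did not, none of them called. Under quantile normalization, beat-Ia was at -0.040, side-VI 149661_at at 0.075 and DIP-delta 148220_at at -0.064. Under median centring, beat-Ia was at -0.0075 and dpr17 149733_at at -0.0039. Under cyclic loess, beat-Ia was at -0.032, side-VI 149661_at at 0.081 and DIP-delta 148220_at at -0.016. With the covariate, beat-Vc was at 0.37, side-II 144291_at at 0.065, dpr16 at -0.19 and dpr17 149733_at at -0.14. With the replicate block, side-II 146358_at was at -0.16, dpr16 at -0.077 and dpr17 149733_at at -0.21.

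Without 1 array the ranges were -0.11 to 0.21 for beat-Ia, -0.11 to 0.53 for beat-IIa 150065_at, -0.0013 to 0.33 for beat-IIb 150062_at, -1.40 to 0.71 for beat-Vc and -0.35 to 0.0084 for beat-VI 150775_at. They were -0.40 to 0.056 for side 151096_i_at, -0.31 to 0.27 for side-II 144291_at, -0.16 to 0.75 for side-II 146358_at and -0.12 to 0.089 for side-VI 149661_at. They were -0.077 to 0.27 for dpr16, -0.21 to 0.29 for dpr17 149733_at, -0.18 to 0.52 for DIP-delta 148220_at, -0.19 to 0.68 for DIP-delta 148221_at and -0.13 to 0.32 for DIP-gamma.

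With 2 and 3 arrays a group, differences of the size seen in most members could not be separated from the spread between arrays, and a p that misses the threshold does not show that a level was equal. In 10 members the signal was not above the mouse and yeast controls throughout either group.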
